A study of Mus musculus with 8 samples.

Results

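Endoplasmic reticulum (ER) chaperones were described as the 10 genes Hspa5, Hsp90b1, Dnajb11, Calr, Canx, Pdia3, P4hb, Pdia4, Pdia6 and Ero1l, chosen by symbol from the 25574 genes of the expression table. All 10 symbols were found, each in a single entry. The libraries came from fully grown oocytes of CD1 mice of 8 weeks, collected 46 h after an injection of 5 IU pregnant mare serum gonadotropin, freed of their surrounding cells and held in meiotic arrest with 100 µM IBMX during isolation. The oocytes were then cultured without IBMX, and those that underwent nuclear envelope breakdown (NEBD) were selected during that culture. At 180 min after the removal of IBMX they were treated with 0.1 mg/ml cycloheximide, which holds ribosomes on mRNA, for 10 min. Lysates of 200 oocytes were spun through sucrose gradients of 10 to 50%. The polysomal fractions of a gradient gave a P library, whereas the non-polysomal fractions gave an NP library. The paper left out the top fraction of the gradient, and its NP pool held the ribosomal subunit and monosome peaks. It could not exclude stored particles in the top fraction, or heavy stored particles that sediment with polysomes. There were 4 biological replicates, hence 4 P and 4 NP libraries, and every library shared the hormone, IBMX and cycloheximide treatment. The comparison of P with NP asks which mRNAs sit on polysomes at NEBD. It was measured here as FPKM, a number of reads or fragments scaled to gene length and to library size. Because FPKM is a share of each library, a larger share of a gene's mRNA on polysomes and a smaller amount of all other mRNA in the polysomal pool cannot be told apart.

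Proteins that enter the ER are folded there before they travel on to the cell surface or are secreted. The Hsp70-type chaperone BiP binds unfolded chains, GRP94 finishes the folding of selected clients, calnexin and calreticulin hold chains that carry N-linked sugars, and the protein disulphide isomerases form and rearrange disulphide bonds. In oocytes this route makes the zona pellucida glycoproteins and the secreted growth factors that act on the surrounding cells. Many of these chaperone genes share a promoter element that responds to unfolded protein, the ER stress response element (ERSE), and many of the soluble proteins end in a short retrieval signal, KDEL, which returns them from the Golgi.

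The promoter sites are shown as a description of the chosen genes. Many of these genes are known to share ERSE, so its presence here is not an independent result. The RefSeq promoters of all 10 genes on GRCm38.p6, from 250 bases before to 50 bases after the start, were searched on both strands for ERSE, spelled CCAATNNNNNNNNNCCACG, and for the related ERSE-II, spelled ATTGGNCCACG. Capitals mark the fixed letters, and each site is written on the strand on which the motif reads 5′ to 3′.
Hspa5, chr2:34772025-34772043, strand of the gene: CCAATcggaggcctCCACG
Hsp90b1, chr10:86705638-86705656, strand of the gene: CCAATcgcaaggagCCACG
Hsp90b1, chr10:86705533-86705551, opposite strand: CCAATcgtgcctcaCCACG
Calr, chr8:84847075-84847093, opposite strand: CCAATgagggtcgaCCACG
Canx, chr11:50325800-50325818, strand of the gene: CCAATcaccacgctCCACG
Pdia6, chr12:17266491-17266509, strand of the gene: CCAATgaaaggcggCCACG
Dnajb11, chr16:22857852-22857862, ERSE-II, strand of the gene: ATTGGcCCACG
An ERSE was thus found for 5 of the 10 genes, against 37 of the 27025 genes with a promoter in the RefSeq table, or 0.137%. ERSE-II was found for Dnajb11 and for 12 of the 27025 genes, or 0.0444%. The counts over all genes include the chaperones. No exact match lay in the promoter windows of Pdia3, Pdia4, P4hb and Ero1l, which says only that these letters were not in these windows.

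The ends of the coding sequences are shown for the retrieval signal. Each line gives the last 8 codons and the stop codon from the GENCODE transcripts of GRCm38, with the last 4 codons before the stop in capitals.
Hspa5: gatacatcagaaAAAGATGAGTTGtag
Hsp90b1: gaatctacagagAAGGATGAATTGtaa
Calr: cctggccaagccAAGGATGAGCTGtag
Pdia6: gatgacctggagAAGGATGAGTTGtga
P4hb: cagaaagctgtgAAGGATGAACTGtag
Pdia4: aggagcaggaccAAGGAAGAGCTTtaa
Pdia3: aagaagaaggcaCAAGAGGACCTCtaa
The 4 codons in capitals read KDEL in Hspa5, Hsp90b1, Calr, Pdia6 and P4hb, in 5 different codon spellings. An end that reads KDEL, HDEL or RDEL was found in 28 of 21677 genes, or 0.129%. The capitals read KEEL in Pdia4 and QEDL in Pdia3, spellings that the search did not count. The search therefore does not say that these proteins lack a retrieval signal. Dnajb11, Ero1l and the membrane protein Canx also had none of the spellings searched.

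Of the 10 genes, 9 were detected in every library and none differed between P and NP at an adjusted p below 0.1 by limma (moderated linear models on log2(FPKM + 1), Benjamini-Hochberg over 14292 genes). The background was 3 genes called, or 0.021% of those tested. At an unadjusted p below 0.05, 0 of the 10 passed, against 9.95% of all genes. With each library scaled to the same median FPKM, 2 of the 10 did so, against 1391 of the 14292 genes. The P and NP libraries overlapped for all 10, whereas they did not overlap for 6.28% of all genes (0.357% with every P library higher and 5.92% with every NP library higher). The log2 fold change of P over NP was above 0 for 5 of the 10 genes, against 28.6% of all genes. Its median was 0.07 over the 10 genes and 0.23 over the 9 detected in every library, whereas the median over all genes tested was −0.39. Thus 8 of the 10 lay above the median of all genes, with no test of that count. This split depended on scaling: with each library scaled to the same median FPKM, the median of all genes moved to 0.21, 58.1% of all genes and 9 of the 10 chaperones were above 0, and the median of the 10 lay 1.17 above that of all genes instead of 0.47. With a pseudocount of 0.1 that gap was 0.91, and with no filter on low values it was 0.07, with 5 of the 10 above the median of all genes. Removal of a library moved the median of the 10 between −0.15 and 0.30, with 0.38 over the 9 genes that passed the filter without NP replicate 1, and it was below 0 without NP replicate 4 (−0.15), P replicate 3 (−0.02) or P replicate 4 (−0.04). With voom weights on the whole steps recovered from the FPKM values, 0 of the 10 genes passed as well.

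The libraries differed in depth, and the whole steps behind the FPKM values were recovered from the values themselves. The number to which a library was scaled lay between 1299377 and 7594637 for NP and between 2677946 and 4699328 for P. Genes above 0 numbered 11703 to 13753 in NP and 9139 to 11339 in P, so every P library held fewer than every NP library. The part of that gap in the median of all genes was not tested. A step can stand for a read or for a fragment, which the sources do not state. The oocyte label was checked with 10 oocyte genes, all of which were detected in both datasets, at a summed FPKM of 6495 to 13175 in NP and 8468 to 37068 in P. Of 14 granulosa and cumulus genes, 6 were at 0 in every library of a dataset, and the summed FPKM was 15.3 to 145 in NP and 20.0 to 64.0 in P. The largest values were Cyp19a1 at 75.2 FPKM in NP replicate 4 and 62.6 in P replicate 2, and Nr5a2 at 61.4 in NP replicate 3. Cyp11a1 was at 46.4 in NP replicate 4 and 17.9 in P replicate 4. Of 4 blood genes found, 3 were at 0 throughout NP and 4 throughout P. The exception in NP was Cd68, at 35.9 FPKM in replicate 1, 0.984 in replicate 3 and 7.33 in replicate 4. The part of these other cells in the chaperone values was not tested.

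The level of the 10 genes spanned a wide range, and the plot of FPKM by library shows their order. Averaged over the 8 libraries, P4hb stood at 383 FPKM, Calr at 171, Pdia4 at 104, Canx at 25.9, Hsp90b1 at 19.6, Hspa5 at 17.6, Dnajb11 at 14.6, Pdia3 at 14.2, Pdia6 at 10.4 and Ero1l at 0.0733. Within libraries, Pdia4 exceeded Canx in 8 of 8 and Pdia6 exceeded Ero1l in 8 of 8, although across libraries the ranges of Pdia4 (lowest 43.6) and Canx (highest 53.0) overlapped. P4hb exceeded Calr in 7 of 8 and Calr exceeded Pdia4 in 6 of 8. From Canx to Pdia6 each neighbour was the higher in 3 to 6 of 8 libraries, and no order among these genes was resolved.

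**Figure D1:**
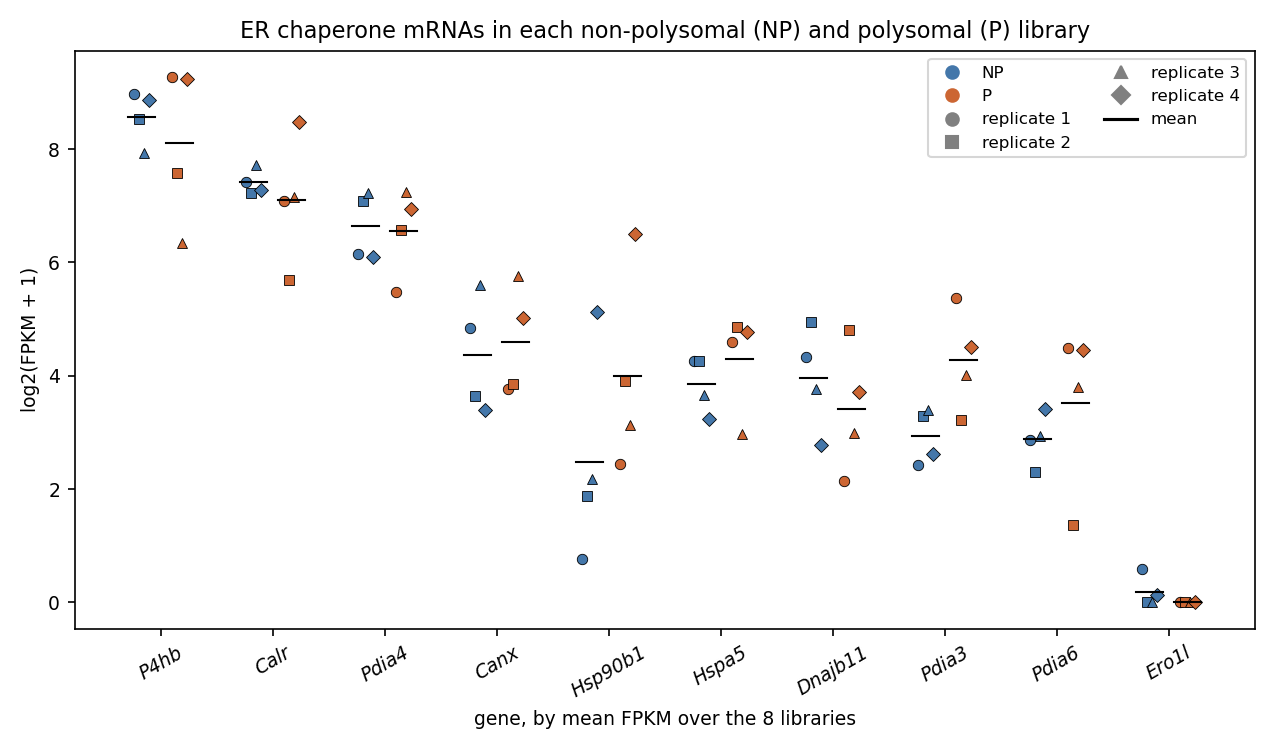
Level of each ER chaperone gene as log2(FPKM + 1) in the 4 NP and 4 P libraries, with the marker shape giving the replicate number and a bar the mean of the log2 values. P4hb, Calr and Pdia4 stood above the other genes, Ero1l was at or near 0, and the NP and P points overlapped for every gene.

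P4hb, Calr and Pdia4 together made up 85.8% ± 5.07 (SD, n = 8) of the summed FPKM of the 10 genes. The grouping follows the order of the means in these same values. Their joint share was 89.4% ± 1.80 in the NP and 82.3% ± 4.85 in the P libraries (SD, n = 4 each). The lowest value, 78.3%, was in a P library and the highest, 90.7%, in an NP library. The ranges overlapped, with P replicate 1 at 88.3% above NP replicate 3 at 86.8%. Hspa5, which encodes BiP and is often among the most abundant mRNAs of secretory cells, made up 1.88% ± 0.615 of the sum in NP and 3.16% ± 2.31 in P (SD, n = 4 each). P4hb exceeded Hspa5 in every library, by a ratio between 6.78 and 55.0. The summed FPKM of the 10 genes was 749 ± 54.2 in NP and 772 ± 401 in P (SD, n = 4 each), so the means were close and the P libraries were the more variable.

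**Figure D2:**
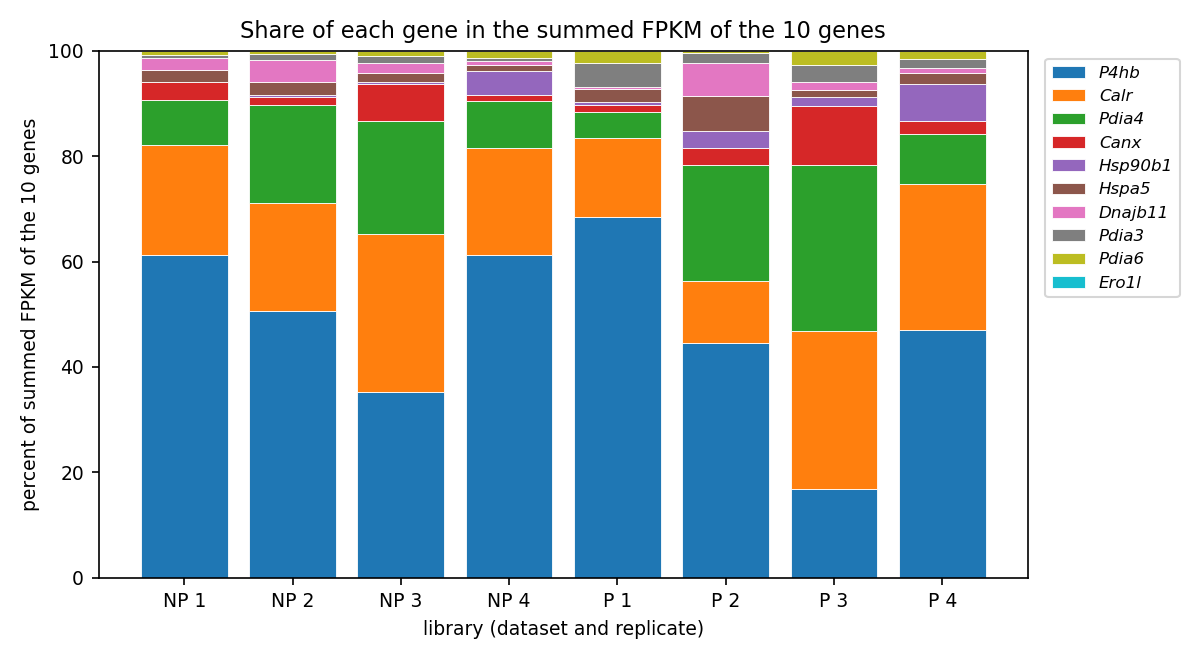
Percent of the summed FPKM of the 10 genes that each gene contributed, in each of the 8 libraries. P4hb, Calr and Pdia4 fill 78.3 to 90.7% of every bar, and the P4hb share is lowest in P replicate 3.

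Hspa5 (chr2:34771970-34776531, plus strand) encodes BiP, the ER member of the Hsp70 family. Its FPKM in NP replicates 1 to 4 was 18.2, 18.2, 11.7 and 8.43, and in P replicates 1 to 4 it was 23.1, 28.1, 6.85 and 26.5. Of the P values, 3 lay above every NP value and P replicate 3 lay below every NP value. The means were 14.1 ± 4.88 in NP and 21.1 ± 9.74 in P (SD, n = 4 each). The log2 fold change was 0.45 with a 95% interval of −1.07 to 1.96 (limma, adjusted p = 0.792). The values rested on 83 to 382 steps per library.

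Hsp90b1 (chr10:86690209-86705509, minus strand) encodes GRP94, the ER member of the Hsp90 family. It was listed at 0.699, 2.67, 3.51 and 33.8 FPKM in NP replicates 1 to 4 and at 4.43, 14.1, 7.76 and 89.6 FPKM in P replicates 1 to 4. It had the widest range of the 9 detected genes, 128-fold from the lowest to the highest library, and replicate 4 was the highest in both datasets. Each P library exceeded the NP library of the same number. The log2 fold change was 1.51 with an interval of −0.84 to 3.87 (limma, adjusted p = 0.640), higher than that of 98.9% of all genes tested. The lowest value rested on 9 steps and the highest on 1036. Its log2 fold change was 0.68 without P replicate 4, 2.39 without NP replicate 4 and 1.56 without both (adjusted p from 0.435 to 0.791 when each library was left out).

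Dnajb11 (chr16:22857845-22879634, plus strand) encodes ERdj3, a J-domain protein that brings clients to BiP. Its FPKM was 19.1, 29.7, 12.6 and 5.90 in NP and 3.42, 27.2, 6.95 and 12.1 in P, replicates 1 to 4 in order. Replicate 2 was the highest in both datasets and the remaining values overlapped. Its log2 fold change was −0.54 with an interval of −2.28 to 1.20 (limma, adjusted p = 0.783).

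Calr (chr8:84841850-84846934, minus strand) encodes calreticulin, the soluble lectin chaperone of the ER and a calcium store. NP values were 171, 149, 209 and 154 FPKM and P values were 135, 50.9, 142 and 355 FPKM. The NP libraries lay close together, whereas the P libraries held both the lowest and the highest value. The means were 171 ± 27.1 in NP and 171 ± 130 in P (SD, n = 4 each), and the log2 fold change was −0.30 with an interval of −1.63 to 1.02 (limma, adjusted p = 0.835).

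Canx (chr11:50293961-50325673, minus strand) encodes calnexin, the membrane-bound counterpart of calreticulin. It measured 27.6, 11.5, 47.8 and 9.51 FPKM in NP and 12.7, 13.5, 53.0 and 31.4 FPKM in P. Replicate 3 was the highest in both datasets. P over NP gave a log2 fold change of 0.23 with an interval of −1.38 to 1.84 (limma, adjusted p = 0.902). Calr exceeded Canx in every library, by a ratio of 9.93 ± 5.57 in NP and 7.12 ± 4.52 in P (SD, n = 4 each).

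Pdia3 (chr2:121413775-121438687, plus strand) encodes ERp57, the disulphide isomerase that works with calnexin and calreticulin on glycoproteins. Its FPKM was 4.39, 8.83, 9.54 and 5.12 in NP and 40.5, 8.35, 15.1 and 21.9 in P. Of the P libraries, 3 of 4 lay above the highest NP library. The means were 6.97 ± 2.59 (SD, n = 4) and 21.5 ± 13.9 (SD, n = 4), a ratio of 3.08. The log2 fold change was 1.35 with an interval of −0.25 to 2.94 (limma, adjusted p = 0.542). The unadjusted p from limma, 0.0917, was the smallest of the 10 genes.

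P4hb (chr11:120560298-120573253, minus strand) encodes protein disulphide isomerase itself, which is also a subunit of prolyl 4-hydroxylase. It was the most abundant of the 10 genes, at 502, 367, 244 and 464 FPKM in NP and 617, 190, 80.5 and 601 FPKM in P. In both datasets replicate 1 was the highest and replicate 3 the lowest. In NP it ranked above 98.9 to 99.3% of all genes of a library, and in P above 95.8 to 99.4%. The log2 fold change was −0.47 with an interval of −1.92 to 0.99 (limma, adjusted p = 0.777).

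Pdia4 (chr6:47796142-47813512, minus strand) encodes ERp72, a larger disulphide isomerase. Its NP values were 70.2, 135, 149 and 67.1 FPKM and its P values 43.6, 94.0, 150 and 123 FPKM. Means of 105 ± 42.6 and 102 ± 45.4 (SD, n = 4 each) lay close together, and the log2 fold change was −0.08 with an interval of −1.35 to 1.19 (limma, adjusted p = 0.958). The ratio of Pdia4 to Pdia3 was 15.0 ± 1.29 (SD, n = 4) in NP, from 13.1 to 16.0, and 6.96 ± 4.60 (SD, n = 4) in P, from 1.08 to 11.3, so that the highest P ratio was below the lowest NP ratio. That ratio was picked after the values were seen and was not tested.

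Pdia6 (chr12:17266545-17284770, plus strand) encodes a further disulphide isomerase, P5. Its FPKM was 6.27, 3.90, 6.68 and 9.63 in NP and 21.4, 1.58, 12.9 and 20.8 in P. P replicate 2, the lowest of all 8, rested on 19 steps, and the other P values lay above every NP value. For Pdia6 the log2 fold change was 0.65 with an interval of −1.22 to 2.51 (limma, adjusted p = 0.760).

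Ero1l (chr14:45283092-45318572, minus strand) encodes Ero1-alpha, the oxidase that recharges protein disulphide isomerase. It was listed at 0.497 FPKM in NP replicate 1, on 7 steps, and at 0.0895 in NP replicate 4, on 3 steps, and at 0 in NP replicates 2 and 3 and in all 4 P libraries. A count of 0 allowed up to 3 steps, or 0.523 FPKM in NP replicate 2, 0.0934 FPKM in NP replicate 3 and 0.145 to 0.254 FPKM in the P libraries, for counting error alone, and no fold was given. The paralogue Ero1lb, encoding Ero1-beta, measured 25.4, 17.1, 40.6 and 16.8 FPKM in NP and 63.0, 27.3, 35.2 and 72.7 FPKM in P, with a log2 fold change of 0.95 (limma, adjusted p = 0.613). Ero1lb was thus far above Ero1l in every library.

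**Figure D3:**
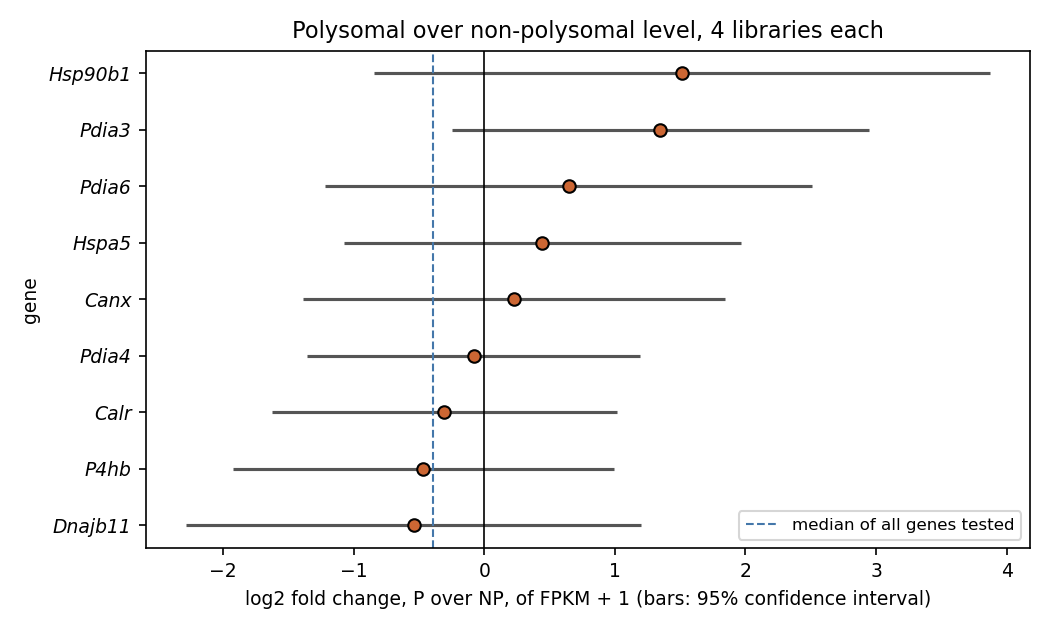
Log2 fold change of P over NP with its 95% confidence interval (limma, 4 libraries each) for the 9 genes detected in every library. Every interval includes 0, and Hsp90b1 and Pdia3 lie farthest above the median of all genes tested (dashed line, −0.39).

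Among the genes that carry an ERSE, log2 fold changes were 0.45 for Hspa5, 1.51 for Hsp90b1, −0.30 for Calr, 0.23 for Canx and 0.65 for Pdia6. Among the detected genes with no exact ERSE match in the windows searched they were 1.35 for Pdia3, −0.08 for Pdia4 and −0.47 for P4hb. For Dnajb11, also without an ERSE match but with an ERSE-II, it was −0.54. Both groups held values on either side of 0. Across the genome 20 of the 28 genes with a KDEL, HDEL or RDEL end could be tested, chaperones included. Of these, 13 had a log2 fold change above 0, against 28.6% of all genes. Their median was 0.27, against −0.39 over all genes, and none passed the test, against 0.021% of all genes. Of the 15 outside the 10 chaperones, 10 were above 0, and the median was 0.18.

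Replicate numbers come from the labels, and it is not stated that NP and P libraries of equal number were cut from the same gradient. For 5 of the 9 detected genes the same number was highest in NP and in P, namely Hsp90b1, Canx, Pdia4, P4hb and Dnajb11, against 33.8% of the 6415 genes whose mean exceeded 10 FPKM in P or NP. Where P was compared with NP by number, P was higher for 5, 3, 5 and 9 of the 9 genes for numbers 1 to 4. The background over the same 6415 genes was 44.1, 32.3, 31.6 and 39.5%. For number 4 the differences lay between 0.37 and 1.90 on the log2 scale, with a median of 1.20. Number 4 was singled out after its values were seen, and the count was not tested. Without P replicate 4 the median log2 fold change of the 10 genes was −0.04, and without both libraries numbered 4 it was −0.21.

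**Figure D4:**
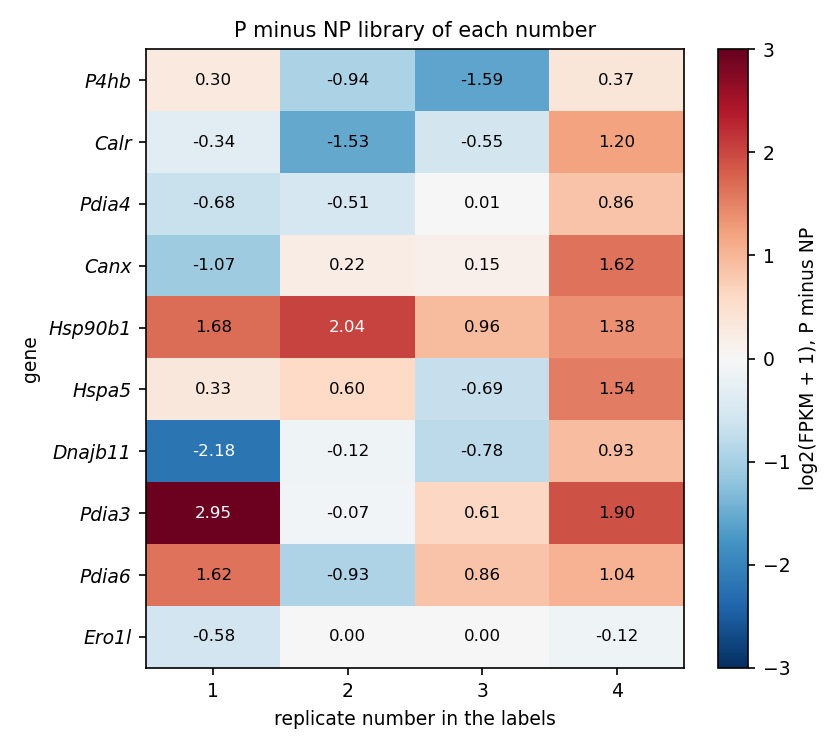
Difference of log2(FPKM + 1), P minus NP, between the libraries of the same replicate number, for each of the 10 genes. In the column of number 4 all 9 detected genes are above 0, from 0.37 to 1.90, while the other columns hold both signs and Hsp90b1 is above 0 in all 4 columns.

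By Pearson's r over the 8 libraries of log2(FPKM + 1), the genes most like the median centred profile of the 10 chaperones were Spsb4 (r = 0.970), Atf7ip (0.969), Slc35a2 (0.968), Tspo (0.964) and Nr1h2 (0.960), of 6406 genes. The profile stood at 0.80 in P replicate 4 and between −0.25 and 0.18 in the other libraries. All 5 genes were high in P replicate 4 alone, Slc35a2 at 3304 FPKM against at most 6.51 FPKM elsewhere. The likeness is a description of 8 points, of which 1 library sets the value.

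Other genes of the ER folding system were taken as lists, and no gene of any of them passed the test, against 0.021% of all genes. Over all genes tested, 28.6% had a log2 fold change above 0 and the median was −0.39. Both values depended on scaling, as given above, and the lists are given under the main setting only. Of 12 cofactors of BiP, 7 had a log2 fold change above 0 and the median was 0.10. Creld2, a secreted ER stress protein with disulphide isomerase-like motifs, had the highest mean over the 8 libraries and means of 333 ± 336 FPKM in NP and 1537 ± 1129 in P (SD, n = 4 each, log2 fold change 2.55, limma adjusted p = 0.464). Manf, which binds BiP, had means of 465 ± 248 and 158 ± 151 (SD, n = 4 each, log2 fold change −2.18, adjusted p = 0.436). The direction of Creld2 and of Manf was thus opposite within the same list. In the calnexin cycle list, 7 of 10 tested were above 0 with a median of 0.24. Prkcsh, a glucosidase II subunit, had a log2 fold change of 2.54 (adjusted p = 0.421) and Calr4, a relative of calreticulin, one of −2.64 (adjusted p = 0.416). Lman2, a lectin of the secretory route, was the most abundant of that list at 36.7 FPKM in NP and 49.2 in P. Of 18 other disulphide isomerase and oxidation genes, 10 were above 0 with a median of 0.12, from −1.35 for Txndc11 to 0.95 for Ero1lb, and Txndc5 was the most abundant, at 215 and 261 FPKM.

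Lists of further steps of ER protein handling had lower medians, on a background where the median of all genes tested was −0.39. The median was −1.15 for 4 prolyl isomerases, 1 of them above 0, with Ppib the most abundant at 222 FPKM in NP and 98.3 in P, and Fkbp2 read in P in replicate 1 only, at 108 FPKM. It was −0.26 for 12 genes of the unfolded protein response, 6 above 0. In that list the sensor Ern1 was the most abundant at 268 and 442 FPKM, Ddit3 was at 300.2 FPKM in P replicate 1 against 0.546 to 8.07 in the other P libraries, and Atf6b had the lowest log2 fold change, −2.02 (adjusted p = 0.484). It was −0.40 for 18 genes of ER-associated degradation, 8 above 0, where Ube2g2 had a log2 fold change of 1.79 and Ube2j1 one of −1.97. For the KDEL receptors Kdelr2 and Kdelr1, which bind the retrieval signal, it was −0.89, with 0 of 2 above 0. Outside ER folding, the median was −0.44 for 18 genes of the Sec61 translocon list, 4 above 0. That list also holds genes of the signal recognition particle and its receptor. The median was −0.43 for 14 cytosolic and mitochondrial heat shock genes, 6 above 0, and 0.55 for 8 CCT chaperonin genes, 6 above 0. Of the genes listed, 11 fell below the filter on low values and were not tested, among them Kdelr3, Clgn and Herpud1.

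**Figure D5:**
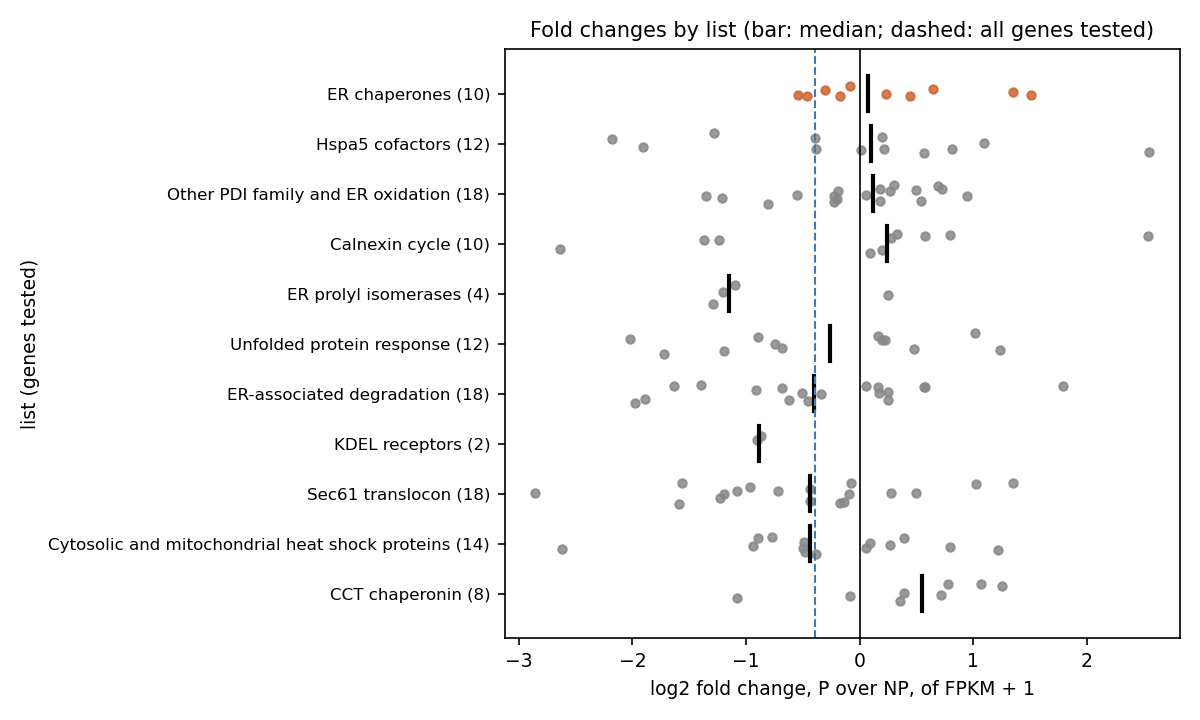
Log2 fold change of P over NP (limma, FPKM + 1) of every gene tested in the 10 chaperones, 7 lists of ER genes and 3 comparison lists, with a bar at each median. The 10 chaperones, the cofactors, the other disulphide isomerases, the calnexin cycle and the CCT chaperonin have medians above 0, and the median of all genes tested is −0.39 (dashed line).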

How the data were processed

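Per the submitters' processing notes, the authors used Trim Galore 0.4.1 for trimming, FastQC 0.11.5 for read quality and HISAT2 2.0.5 for mapping to GRCm38, and Seqmonk then gave FPKM for each gene. RNA had been depleted of ribosomal RNA, reverse transcribed with random and oligo(dT) primers and amplified without molecular identifiers, so floors from a count of 0 cover counting error only, whereas the 95% intervals of fold changes come from the spread between replicates. The deposited FPKM values of 25574 genes in 8 libraries are linear. The deposited FPKM means of each dataset were within 0.000575 of those computed here. The authors' lists of expressed genes and of their DESeq2 comparison hold means, ratios and fold changes and were not used.

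The 14292 genes whose mean FPKM exceeded 0.1 in P or NP were fitted with limma 3.58.1 in R 4.3.3 (lmFit, eBayes with a trend) on log2(FPKM + 1), P against NP, 2-sided, adjusted after Benjamini-Hochberg and called below 0.1. Fold changes on this scale understate the change of low genes. P-values measure the spread between the 4 replicates of each dataset. Whole steps behind the values were recovered for 14662 genes (94.1% of the 15585 above 0) from an annotated (6978 genes) or a searched length, to within 0.01 of a step. The lengths of Hspa5, Pdia4 and Ero1l were searched. Python 3.11.15, numpy 2.4.6, pandas 2.3.3 and matplotlib 3.10.9 were used.

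Groups were taken from the titles. Named genes were the 10 members, in each list the gene of the highest mean FPKM and those with the highest and lowest log2 fold change among genes with a mean FPKM above 10, and the 5 genes most like the members' median profile. A gene that this rule names is not reported here. The members, lists and comparisons were chosen with earlier results of these data known. The list of coding ends with a retrieval signal, the comparison by replicate number and the promoter search were described without a test. Alternatives were another pseudocount (0.1), no filter, a filter of 1, median scaling, quantile normalization, a replicate block, limma without a trend, and removal of each library. Precision weights (voom) on the recovered steps and removal of both libraries numbered 4 were chosen after seeing the data.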

Additional observations from a re-analysis of the deposited data

Results flagged for a closer look

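Within datasets of 4 libraries, a single value far from the other 3 was found in 16 of 66 groups checked. Chance gives about 1 in 20 for groups not chosen by their values, a rate that does not apply here, since many of these genes were named for their fold change and 5 for a profile that peaks in P replicate 4. In each, the gap to the nearest other library made up most of the range of the 4 (Dixon's 95% limit). Among the chaperones only Hsp90b1 was concerned, at 33.8 FPKM in NP replicate 4 against 0.699 to 3.51 in the other NP libraries, and at 89.6 FPKM in P replicate 4 against 4.43 to 14.1 in the other P libraries. Its log2 fold change was 2.39 without the first and 0.68 without the second.

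P replicate 4 was also far above the other P libraries for the 5 genes most like the chaperone profile, with Spsb4 at 50.9 FPKM, Atf7ip at 137, Slc35a2 at 3304, Tspo at 104 and Nr1h2 at 68.4. P replicate 1 stood apart for Lman2 at 121 FPKM, Fkbp2 at 108 and Ddit3 at 300.2, P replicate 2 for Ube2j1 at 32.9, and P replicate 3 for Kdelr2 at 123 and Ern1 at 960.2. In NP, replicate 3 stood apart for Ern1 at 376 FPKM and Txndc11 at 55.3, and replicate 4 for Ddit3 at 23.98. The libraries that stood apart were thus replicates 1 to 4 of P and replicates 3 and 4 of NP. The cause was not tested.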

How the results depend on the processing

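None of the 10 chaperones passed the test under any of 17 alternatives (15 for Ero1l, which fell below the low-value filter in the other 2), and the lowest adjusted p of a member was 0.386 (limma without a trend). The count of genes called over the whole table was 3 and depended on the setting: 5 with a pseudocount of 0.1, 1 without a filter, 5 with a filter of 1, 0 with median scaling, 0 with quantile normalization, 20 without a trend, 0 to 5 when each library was left out, 132 with voom on the recovered steps (of 13253 genes, 1 of them in the ER lists) and 0 without both libraries numbered 4. The median log2 fold change of the 10 chaperones was 1.39 with each library scaled to the same median FPKM, which moved the median of all genes from −0.39 to 0.21, and was −0.15 to 0.38 when each library was left out, the 0.38 over 9 genes since Ero1l fell below the filter without NP replicate 1. At an unadjusted p below 0.05, 2 of the 10 passed with median scaling, 1 each with quantile normalization, no filter, no trend and without NP replicate 4, and 0 otherwise. Of all 14292 genes, 1391 passed with median scaling, 942 with quantile normalization and 1616 without a trend. The background was 1454 of 25574 genes without a filter and 1598 of 14182 without NP replicate 4. Signs changed in 14 of 168 values of single genes. With median scaling Calr became 1.03, Pdia4 1.25, P4hb 0.87 and Dnajb11 0.71, and with quantile normalization Pdia4 became 0.090. Without both libraries numbered 4 Canx became −0.23. When each library was left out, Calr lay between −0.76 and 0.17, Canx between −0.16 and 0.64, Pdia4 between −0.31 and 0.28 and P4hb between −0.85 and 0.12, with the sign turned without P replicate 2 (Calr), NP replicate 2, NP replicate 4 or P replicate 3 (Canx), NP replicate 2, NP replicate 3 or P replicate 1 (Pdia4) and P replicate 3 (P4hb). The cause was not tested.

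With a replicate block 1 gene was called and no chaperone. Over 11374 genes, deviations from the dataset means were correlated between P and NP libraries of the same number. The values were 0.139, 0.0518, 0.251 and 0.155 for numbers 1 to 4, and 7 of 8 libraries correlated best with their own number. The paper pooled polysomal and non-polysomal fractions of the same profiles, but the labels do not tie libraries of equal number to the same gradient. The main fit did not take the samples as pairs, and its p-values and intervals leave out any pairing. Ero1l rested on at most 7 steps, and on 0 and 3 steps in NP replicates 3 and 4, which had the largest scaling numbers.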
